A study of Oryza sativa Japonica Group with 8 samples.

Results

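The genotypes were compared at room temperature, without a cold treatment: rice seedlings carrying RD29a:DREB1a (T_RT) against control seedlings (N_RT), with 4 of the 8 libraries of the series. The study names 65 genes with a complete ID, most of them picked for a higher level in transgenic than control seedlings after cold shock. Among these, several encoding transcription factors were higher in the transgenic pool at room temperature. OsDREB1C was 15-fold, OsWRKY76 10.2-fold, OsERF109b 9.85-fold and OsDREB1G 7.28-fold higher in T_RT. OsDREB1A, another rice relative of the introduced gene, was 3.07-fold lower. Both alcohol dehydrogenase genes and OsRBOH, which encodes an NADPH oxidase, were also higher in T_RT. Most differences that passed the test were small, and 284 of the 28218 gene IDs tested exceeded the fold thresholds described below.

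DREB1 proteins, also named CBF, are transcription factors of the AP2/ERF family that bind the dehydration-responsive element in promoters of cold and drought genes. In Arabidopsis, cold induces the DREB1 genes, and their targets include dehydrins, LEA proteins and other transcription factors. RD29a is one of these targets, and its promoter is stress-inducible, so that a gene under its control is expected to be low in unstressed plants. The comparison at room temperature addresses what the transgenic seedlings express when the promoter has not been induced by cold.

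The comparison uses 4 of the 8 RNA-seq libraries of the series, 2 from T_RT and 2 from N_RT, and all gene IDs of the count tables, with no gene preselected. T is the Taipei 309 cultivar with a multigene locus stacked by Cre-lox recombination, which holds Arabidopsis DREB1a under the RD29a promoter together with the marker genes NPTII, GUS, GFP and pporRFP. The labels describe T as pooled homozygous lines 11, 20 and 29, whereas the study's text lists homozygous lines 11 and 29 and also hemizygous lines. N is named wild type and Taipei 309 in the sample labels and the parental Cre-lox founder line T5 in the series description. Both groups were 10-day-old seedlings on half-strength MS medium, kept at ambient temperature while sister plates (N_CS and T_CS) received a cold shock of 20 h. Only the aerial parts were taken, and RNA of 6 seedlings was combined into 1 pool per group, from which both libraries were made. The replicates are thus technical, and the p-values concern 2 pools of RNA, leaving variation from plant to plant unmeasured. T and N differ in the whole stacked locus, so DREB1a and the other introduced genes cannot be told apart as sources of a difference. With 1 pool per genotype, other differences between the lines or pools are not separated from the locus. The reads of the introduced genes are not analysed here. In RNA from whole shoots, fewer cells of a type and less RNA per cell cannot be told apart either.

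The 4 libraries had total counts of 19293562 to 24405824, and the 8 of the series 18963211 to 24405824. Between 31492 and 31925 IDs had at least 1 count in the 4 libraries. The 10 most abundant IDs took 5.77% of the counts in each N_RT library and 7.14% in each T_RT library. The 2 libraries of a pool differed by more than counting error, with a chi-square per gene of 1.73 in N_RT and 1.72 in T_RT, where counting error alone gives about 1. Levels are given as CPM, the counts relative to library size, after TMM scaling. At this depth, 3 counts over both libraries of a group correspond to 0.0644 CPM in N_RT and 0.0642 CPM in T_RT, and log2FC values of T_RT versus N_RT had a median SE of 0.124. The tables used here do not pair IDs with leaf or shoot marker names, so the tissue label was not checked against nuclear markers.

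Differences at room temperature were numerous but mostly small. Over all 28218 IDs tested, 2665 rose in T_RT (9.44%) and 2114 fell (7.49%) at an FDR of at most 0.01, where FDR is the adjusted p (Benjamini-Hochberg) of edgeR's quasi-likelihood test. Of these 4779 IDs, 4136 (86.5%) changed by less than 1 on the log2 scale. Following the thresholds of the study, calls needed this FDR together with a log2 fold change (log2FC) of 2 or more for a higher gene and of -1 or below for a lower one. Under these unequal thresholds 156 genes (0.553%) were called higher and 128 (0.454%) lower, and 28 of the latter lay at -2 or below. With the same threshold of 1 in both directions, 515 were higher against the 128 lower. The median log2FC of all IDs was 0.001 and the median of its absolute value 0.18.

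The genes called higher were mostly of low abundance. Their median level over the 4 libraries was 1.30 CPM, against 2.78 CPM for genes called lower and 10.5 CPM for all IDs tested. The first 2 medians rest on unequal thresholds. At a threshold of 1 in both directions, the 515 higher genes had a median of 2.62 CPM, close to the lower genes. Of the 156 called higher, 28 reached a mean of 10 CPM in T_RT and 35 stayed below 1 CPM. Of the 128 called lower, 40 had at least 10 CPM in N_RT and 14 were below 1 CPM. The 20 most abundant called genes were all called lower, a count to be read with the looser threshold for lower calls. The genes called higher made up 0.0138% of the counts in N_RT and 0.103% in T_RT, and those called lower 0.421% in N_RT and 0.177% in T_RT. In all 284 called genes the libraries of the pools did not overlap, which their selection on these same libraries largely fixes. Among all IDs tested, both T_RT libraries lay above both N_RT libraries in 30.2% and below both in 29.6%.

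**Figure D1:**
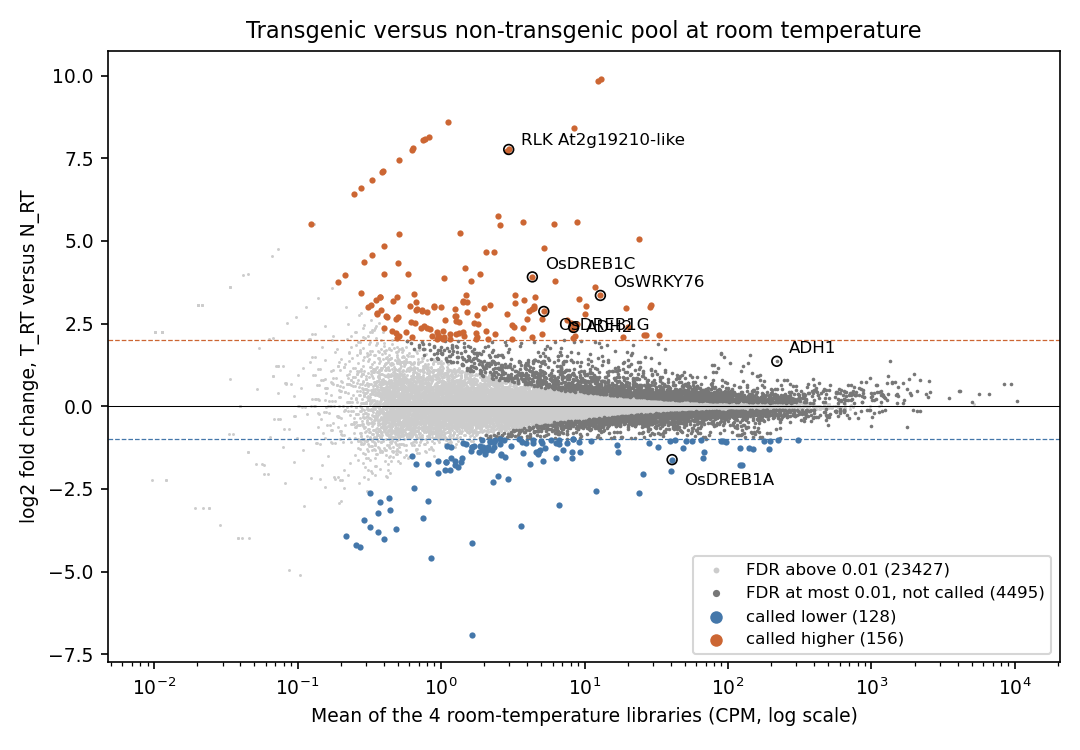
Log2FC of T_RT versus N_RT (y axis) against the mean level of the 4 room-temperature libraries in CPM (x axis, log scale), with 1 point per tested ID and 12 IDs at 0 in all 4 libraries left out. The 156 genes called higher lie above the dashed line at 2 and mostly at low CPM, the 128 called lower lie below the dashed line at -1, and circles mark genes described in the text.

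The numbers of small changes depended on the libraries and the scaling, and the numbers of called genes less so. Without N_RT replicate 1 or 2, 1351 or 1348 IDs fell, and without T_RT replicate 1 or 2, 1327 or 1392 fell, whereas 141 to 144 were called higher and 106 to 109 lower. Scaled by total counts alone, 1995 rose and 3576 fell, so that rises made up 35.8% of the changes, against 55.8% with TMM scaling, while the calls were 149 higher and 166 lower.

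The rice DREB1 genes with an ID, 3 in number, all differed between the pools at room temperature, and in unequal directions. They encode AP2/ERF transcription factors related to the introduced Arabidopsis protein. OsDREB1A was the most abundant of them in N_RT, with 63.7 and 59.4 CPM in the 2 libraries, and it had 19.2 and 20.9 CPM in T_RT. Both T_RT libraries lay far below both N_RT libraries. The log2FC was -1.62 (SE 0.06, FDR 1.6e-32). Ranked by mean level, OsDREB1A was number 21 among the called genes.

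OsDREB1C and OsDREB1G started from low levels and rose. OsDREB1C had 0.577 and 0.486 CPM in N_RT and 7.79 and 8.46 CPM in T_RT, a log2FC of 3.91 (SE 0.23, FDR 7.95e-23). Its T_RT levels stood beside 8.18 and 8.62 CPM in the cold-shocked control N_CS. OsDREB1G had 1.04 and 1.51 CPM in N_RT and 9.52 and 8.75 CPM in T_RT, a log2FC of 2.86 (SE 0.19, FDR 2.55e-20). In N_CS it had 7.39 and 10.5 CPM. For both genes the unstressed transgenic pool had about the level of the cold-shocked control, while OsDREB1A, with 95.4 and 102 CPM in N_CS, was at its lowest in T_RT among the 4 groups. All 3 calls were kept in all 12 alternative fits. With the threshold for lower genes at -2, OsDREB1A, at -1.62, is not called.

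**Figure D2:**
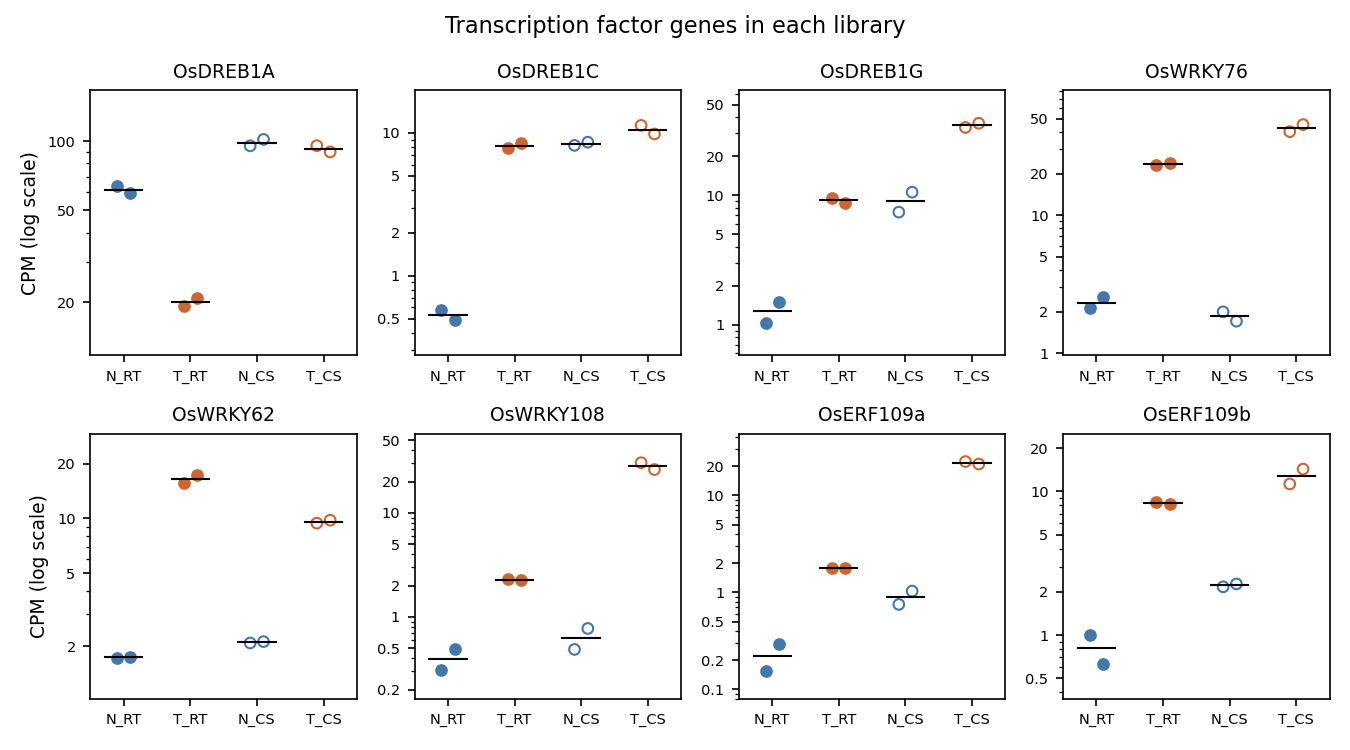
Levels of 8 transcription factor genes in each of the 8 libraries (y axis, CPM on a log scale), with blue for N, orange for T, filled points for room temperature, open points for cold shock and a line at the mean of 2 libraries. OsDREB1A is lowest in T_RT, at 19.2 and 20.9 CPM, whereas the other 7 genes are higher in T_RT than in N_RT.

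WRKY proteins bind W-box elements and act in defense and stress signaling. Of the 8 WRKY genes of the study, 3 rose in T_RT and none fell, beside 9.44% and 7.49% of all IDs. The median log2FC was 1.38. All 8 rose in T_CS versus N_CS. The study picked most genes of this and the other lists for being higher in T_CS, so such counts are no survey of a family. OsWRKY76, known in rice as a repressor in defense, had 2.12 and 2.53 CPM in N_RT and 23.2 and 23.8 CPM in T_RT (log2FC 3.35, SE 0.13, FDR 3.82e-32). OsWRKY62, whose ID is close to that of OsWRKY76, had 1.73 and 1.75 CPM in N_RT and 15.6 and 17.2 CPM in T_RT (3.24, SE 0.16, FDR 1.47e-26). Neither gene's libraries came near to overlapping. OsWRKY108 rose at a lower level, from 0.308 and 0.486 CPM to 2.31 and 2.27 CPM (2.55, SE 0.32, FDR 1.89e-09). The other 5 members did not pass the FDR and had at most 1.45 CPM in any room-temperature library. Among them OsWRKY24 had 2 counts in N_RT and 9 in T_RT, 4.48 times as many (95% counting interval 0.928 to 42.6). OsWRKY67 had a log2FC of -0.01 (SE 0.46) with overlapping libraries.

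Ethylene response factors (ERF) belong to the same AP2/ERF family as DREB1. Of 6 ERF genes of the study, 4 rose and none fell, beside 9.44% and 7.49% of all IDs. The median log2FC was 3.16, and all 6 rose in T_CS versus N_CS. OsERF109b had 1.00 and 0.632 CPM in N_RT and 8.43 and 8.14 CPM in T_RT, a log2FC of 3.30 (SE 0.22, FDR 2.31e-20). OsERF109a was scarcer, with 0.154 and 0.292 CPM in N_RT and 1.77 and 1.78 CPM in T_RT, and changed by a similar 3.01 (SE 0.39, FDR 2.86e-09). OsERF27 had 0.961 and 1.26 CPM in N_RT and 3.58 and 2.11 CPM in T_RT, so its T_RT libraries differed more from each other than those of the previous genes. Its log2FC was 1.35 (SE 0.27, FDR 6.77e-05), and the FDR was 0.0102 without N_RT replicate 1, 0.0377 without T_RT replicate 1 and 0.0541 with DESeq2. OsERF67 rested on 2 counts in N_RT and 24 in T_RT, 12 times as many (interval 2.97 to 104). Its FDR of 0.00343 became 0.0578 without N_RT replicate 1, 0.0283 without N_RT replicate 2, 0.0579 without T_RT replicate 2 and 0.0302 with DESeq2. OsERF108, with 2 counts against 12, and OsERF118, with 0 against 4 counts, did not pass.

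Of the remaining transcription factor genes, the bHLH148-like gene rose and ONAC59 did not pass the test. The bHLH148-like gene, of the basic helix-loop-helix family, had 4 counts over N_RT and 39 over T_RT, or 0.0769 and 0.0973 CPM against 0.771 and 0.891 CPM, and a log2FC of 3.19 (SE 0.57, FDR 7.23e-06). ONAC59, a NAC family gene, had 2.85 and 2.77 CPM in N_RT and 3.44 and 3.85 CPM in T_RT (0.38, SE 0.18, FDR 0.123). OsHsfB2b encodes a class B heat shock factor. It had 0.500 and 0.0973 CPM in N_RT and 0.861 and 1.34 CPM in T_RT, a log2FC of 1.78 (SE 0.50, FDR 0.00515). The size depends on single libraries, as the log2FC was 3.43 without N_RT replicate 1 and 1.14 without N_RT replicate 2. The rise is lost without N_RT replicate 2 (FDR 0.153), without T_RT replicate 2 (1.41, FDR 0.129) and with DESeq2 (1.81, FDR 0.0321).

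Among jasmonate genes, 2 of the 5 JAZ repressor genes fell slightly and OsLOX2 doubled. JAZ proteins repress jasmonate signaling. Of all IDs, 9.44% rose and 7.49% fell. None of the 5 JAZ genes rose, with a median log2FC of -0.30. OsJAZ5, the most abundant, had 81.7 and 85.8 CPM in N_RT and 74.4 and 71.6 CPM in T_RT. OsJAZ1 had 27.3 and 25.9 CPM in N_RT and 21.6 and 21.8 CPM in T_RT. In both genes the pools did not overlap, but the log2FC values were only -0.20 (SE 0.04, FDR 0.000307) and -0.30 (SE 0.08, FDR 0.00143). The FDR of OsJAZ5 was 0.0232 without N_RT replicate 2 and 0.0203 without T_RT replicate 2, and that of OsJAZ1 was 0.0521 without N_RT replicate 1, 0.0187 without T_RT replicate 1, 0.015 without T_RT replicate 2 and 0.0116 with DESeq2. OsJAZ8/9 had a log2FC of -0.49 and an FDR of 0.0111. It passed in 5 of the 12 alternatives. Leaving out T_RT replicate 2 gave -0.89 (FDR 0.000242), and leaving out T_RT replicate 1 gave -0.20 (FDR 0.478).

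Among the genes of jasmonate synthesis, lipoxygenases act at the first step and OPR genes encode oxophytodienoate reductases of a later one. OsLOX2 had 11.6 and 9.63 CPM in N_RT and 22.8 and 21.9 CPM in T_RT, so that its level doubled (2.08-fold, log2FC 1.06, SE 0.09, FDR 1.31e-15). OsLOX1b had 35.4 and 35.8 CPM in N_RT and 39.7 and 42.3 CPM in T_RT, a log2FC of 0.21 (FDR 0.00437). This rise did not pass without N_RT replicate 1 (FDR 0.0456), N_RT replicate 2 (0.0236) or T_RT replicate 2 (0.145), with total count scaling (0.0762) or with DESeq2 (0.0366). OsLOX1a and OsOPR1 had log2FC values of -0.97 (FDR 0.0228) and -0.96 (FDR 0.0226). OsOPR1 passed without N_RT replicate 1 (-1.31, FDR 0.00763) and in no other alternative, with -0.60 (FDR 0.354) without N_RT replicate 2, and its counts were nearly equal to those of a neighbouring ID. OsOPR6 had 0 counts in N_RT and 1 in T_RT. Neither GH3 gene, coding for enzymes that conjugate amino acids to auxin, passed the FDR (-0.28 for OsGH3-6 and -0.41 for OsGH3-8).

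Alcohol dehydrogenase reduces acetaldehyde to ethanol in fermentation, and both genes of the study rose. ADH1 was among the more abundant of all study genes, with 123 and 122 CPM in N_RT and 307 and 323 CPM in T_RT (2.56-fold, log2FC 1.36, SE 0.03, FDR 5.24e-43). ADH2 had 2.73 and 2.68 CPM in N_RT and 12.5 and 15.7 CPM in T_RT (5.21-fold, log2FC 2.38, SE 0.16, FDR 9.95e-21). Libraries of the pools were well separated in both genes. In the cold-shocked control N_CS, ADH1 had 131 and 127 CPM. The IDs of ADH1 and ADH2 lie close together, and whether reads of similar sequences were shared between them is not given in the sources used here.

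Among genes of redox and general stress, OsRBOH and OsUSP36 rose. OsRBOH encodes a respiratory burst oxidase, which makes superoxide at the plasma membrane. It had 12.1 and 12.7 CPM in N_RT and 29.2 and 30.3 CPM in T_RT (log2FC 1.27, SE 0.09, FDR 4.48e-19), and a neighbouring ID had nearly the same counts. Its level in T_CS was 30.5 and 31.0 CPM. OsUSP36, a universal stress protein gene, had 5.15 and 4.52 CPM in N_RT and 17.3 and 20.3 CPM in T_RT (1.95, SE 0.14, FDR 8.59e-19), beside 18.8 and 12.5 CPM in T_CS. The gene for a β-1,3-glucanase, an enzyme that cleaves callose and fungal cell wall glucans, had 7 counts in N_RT and 35 in T_RT. Its log2FC was 2.28 (SE 0.55, FDR 0.000874), and the FDR was 0.0176 without N_RT replicate 1, 0.0108 without N_RT replicate 2 and 0.0275 without T_RT replicate 1. MAPKKK17_18, with 5 counts against 20, did not pass (FDR 0.056). The PP2C gene had 1 count in N_RT and 0 in T_RT, and the Bowman-Birk inhibitor gene had 0 in both.

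LEA, dehydrin and dehydration genes are the classical output of the DREB1 pathway, and at room temperature they did not move together. Of 5 tested, 1 rose and 2 fell, beside 9.44% and 7.49% of all IDs, with a median log2FC of 0.04. OsERD7, an early response to dehydration gene, rose from 28 and 24.7 CPM to 40.0 CPM in both T_RT libraries (0.60, SE 0.06, FDR 1.78e-12). OsLEA2 fell from 87.9 and 91.9 CPM to 64.3 and 65.2 CPM (-0.47, SE 0.05, FDR 9.92e-13). Lip5 was the most abundant gene of the study's lists, with 680 and 667 CPM in N_RT and 608 and 630.1 CPM in T_RT. Its log2FC of -0.12 (FDR 0.000108) had an FDR of 0.0144 without N_RT replicate 1 and 0.0263 without T_RT replicate 1. Dip1 had 53.8 and 55.9 CPM in N_RT and 56.3 and 55.9 CPM in T_RT (0.03, SE 0.05, FDR 0.695), and its sign turned with total count scaling. OsLEA22, with 10 counts over N_RT, did not pass.

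**Figure D3:**
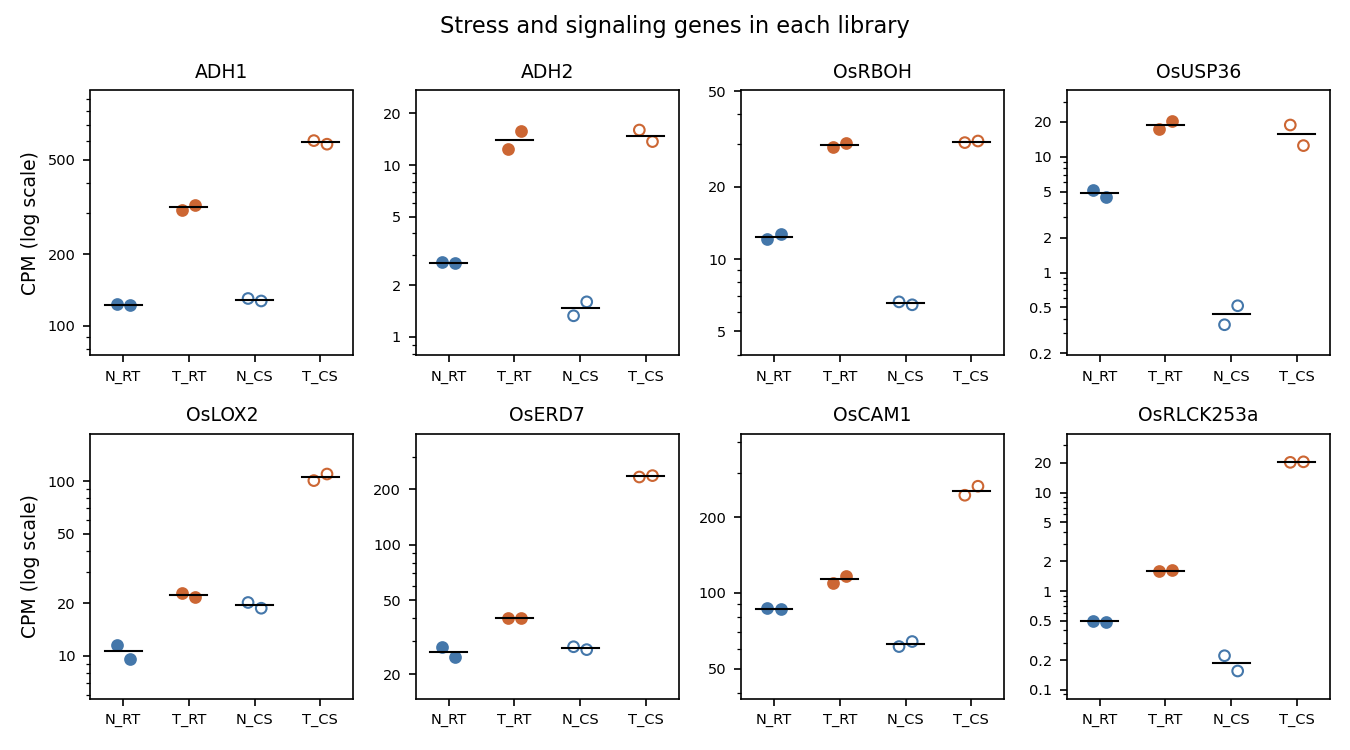
Levels of 8 stress and signaling genes in each of the 8 libraries (y axis, CPM on a log scale), with blue for N, orange for T, filled points for room temperature, open points for cold shock and a line at the mean of 2 libraries. All 8 genes are higher in T_RT than in N_RT, from 1.31-fold for OsCAM1 to 5.21-fold for ADH2. T_RT lies close to T_CS for OsRBOH, and the libraries of T_RT and T_CS overlap for ADH2 and OsUSP36.

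Genes of calcium sensing, chaperones and sugar protectants showed small changes or none that passed. OsCAM1, which encodes calmodulin, rose from 87.3 and 86.0 CPM to 110.0 and 117 CPM (1.31-fold, log2FC 0.39, SE 0.04, FDR 5.41e-11). The calcium-dependent kinase gene did not pass (-0.34, FDR 0.568). The dnaJ gene Os08g0452900, of the co-chaperone family, rose by 0.56 (FDR 0.00026), a rise that did not pass without N_RT replicate 2 (0.0355) or T_RT replicate 1 (0.0174). For trehalose synthesis, the TPS gene Os08g0414700 fell from 21.8 and 18.4 CPM to 14.1 CPM in both T_RT libraries (-0.52, FDR 3.33e-05, and 0.0242 without N_RT replicate 1). The TPS gene Os08g0445700 went the other way without passing (0.23, FDR 0.0525). OsPAO4, a polyamine oxidase gene, had 38.4 and 34.5 CPM in N_RT and 40.0 and 40.3 CPM in T_RT (FDR 0.0708). OsGGPS7, for a geranylgeranyl diphosphate synthase, had a log2FC of 0.83 (FDR 0.0329). OsTPS3, a terpene synthase gene, had -0.42 (FDR 0.683). OsCCR and OsC4H of lignin synthesis, OsTPS23, OsPAO6, the dnaJ gene Os01g0702450 and the α-amylase gene had too few counts to be tested.

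Receptor-like kinases perceive signals at the cell surface. Among the study's 6 genes 3 rose and 1 fell, beside 9.44% and 7.49% of all IDs. The largest difference was that of the RLK At2g19210-like gene, with 1 count in N_RT and 277 in T_RT. The libraries had 0.0385 and 0 CPM in N_RT and 5.58 and 6.24 CPM in T_RT, 276 times as much (95% counting interval 49.1 to 10900, FDR 1.9e-20). The fitted log2FC, 7.76, ran from 7.07 to 9.97 over the alternatives. Its level was higher in T_RT than in T_CS, where it had 1.47 and 1.80 CPM. A neighbouring ID had nearly equal counts, and whether both count the same reads was not tested. OsRLCK253a, a receptor-like cytoplasmic kinase gene, rose from 0.500 and 0.486 CPM to 1.59 and 1.62 CPM (1.69, SE 0.33, FDR 3.41e-05). The NAK kinase gene had 4 counts against 32 (2.91, FDR 0.00118), and its FDR was 0.0303 without N_RT replicate 1, 0.0113 without N_RT replicate 2 and 0.0151 without T_RT replicate 2. The receptor kinase LRR gene fell from 40.2 and 40.5 CPM to 30.0 and 31.2 CPM (-0.40, SE 0.06, FDR 1.08e-07). OsFLS2, the flagellin receptor gene, had a log2FC of 0.36 (FDR 0.0867), and the GSO2-like gene -1.17 (FDR 0.121).

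In all, 24 of the 59 tested study genes rose (40.7%) and 7 fell (11.9%), beside 9.44% and 7.49% of all IDs tested. Of the 59, 13 were called higher and 1, OsDREB1A, lower. The median log2FC was 0.56, beside 0.001 for all IDs. The study drew up its gene lists mainly from T_CS versus N_CS of the same plant material, so these counts carry no independent evidence on direction. By list, the median log2FC was highest for ERF (3.16), rice DREB1 (2.86) and alcohol dehydrogenases (1.87) among lists of at least 2 tested genes. It lay between 1.02 and 1.78 for receptor-like kinases, WRKY, other stress genes and other transcription factors, and it was lowest for GH3 (-0.34) and JAZ (-0.30).

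**Figure D4:**
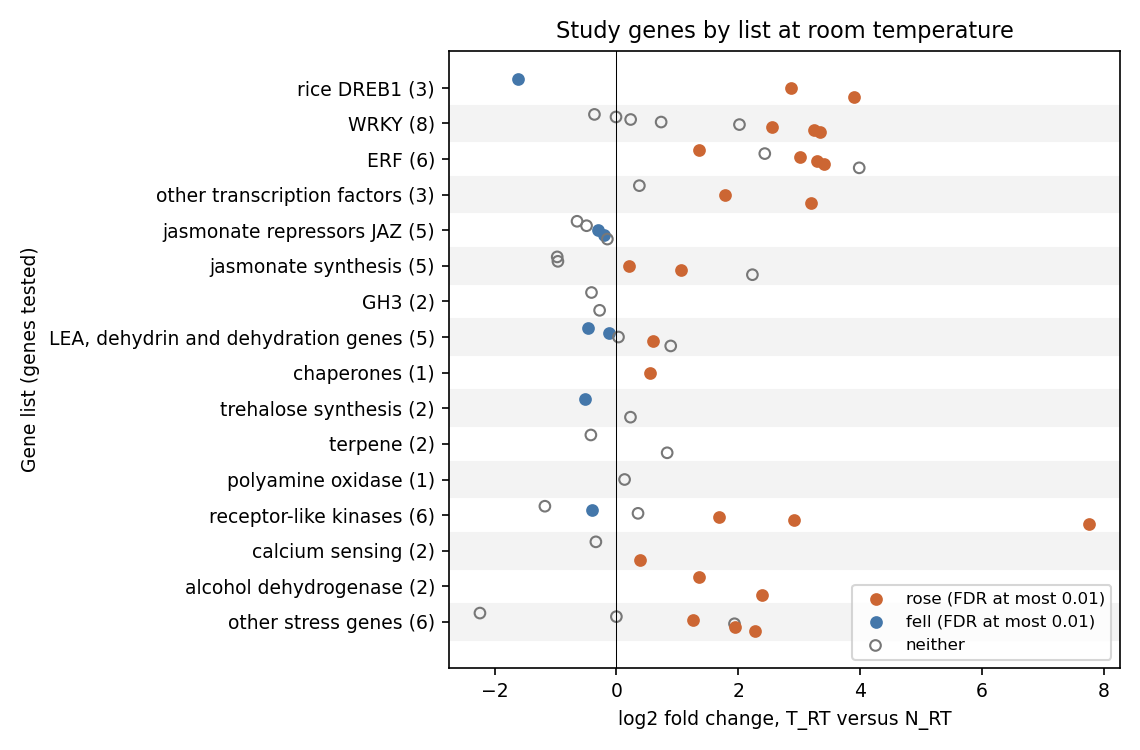
Log2FC of T_RT versus N_RT (x axis) for the 59 tested study genes, 1 point per gene, in rows by list with the number tested, filled orange for genes that rose, blue for genes that fell and open for the rest. OsDREB1A lies at -1.62 and OsDREB1C at 3.91, whereas the 5 JAZ genes lie between -0.65 and -0.15.

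The largest differences belonged to IDs without a name in the tables used here. Os01g0871600 had 1 count in N_RT and 1225 in T_RT, or 25.7 and 26.6 CPM in the T_RT libraries, 1220 times as much (interval 219 to 48200). Os07g0115200 had 1 count against 1163 (25.8 and 24.0 CPM in T_RT), 1160 times as much (interval 207 to 45800). Neither had such a level after cold, as Os01g0871600 had 0.963 and 1.01 CPM in T_CS and Os07g0115200 0.0507 and 0.0562 CPM. Among the genes called lower, Os12g0220001 had 3.35 and 3.16 CPM in N_RT and 1 count in T_RT, a ratio of N_RT to T_RT of 153 (interval 27.0 to 6070). Os01g0627967 had 78 counts in N_RT and 3 in T_RT, a ratio of 26.1 (interval 8.61 to 129). Such near-absent levels in 1 pool were a minority: 13 of the 156 genes called higher had 0 counts in N_RT and 21 had 1 to 3. None of the 128 called lower had 0 counts in T_RT and 11 had 1 to 3. Of the 34 genes called higher with at most 3 counts in N_RT, 20 also had at most 3 in N_CS.

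Set beside the genotype comparison after cold shock, T_CS versus N_CS, which uses 4 other libraries, the room-temperature differences went partly the same way. Of the 156 genes called higher at room temperature, 82 (52.6%) also rose after cold shock, 23 (14.7%) fell and 51 did neither, where 21.4% of all IDs rose and 20.9% fell in that comparison. Of the 128 called lower, 52 (40.6%) fell, 22 (17.2%) rose and 54 did neither. The median log2FC after cold shock was 1.30 for genes called higher at room temperature and -0.63 for those called lower. A test of the difference between the 2 genotype effects passed the FDR in 77 of the 156 genes, with the room-temperature effect more positive in 70. It passed in 60 of the 128, with the room-temperature effect more negative in 53. Genes were chosen here for a large room-temperature effect, which favours a smaller second value, and 32.7% of all IDs passed this test.

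The 31 study genes that rose or fell at room temperature compared with their own effect after cold shock in several ways. OsDREB1A and OsDREB1C passed the test at room temperature and not after cold shock, with log2FC values of -0.09 (FDR 0.145) and 0.34 (FDR 0.0416) there. The difference between treatments was 1.53 (FDR 6.28e-26) and -3.57 (FDR 2.97e-17). In 15 genes the genotype effect had the same direction and was larger after cold shock. Most genes of the study were picked for being higher in T_CS, which favours this pattern, so the count is no independent evidence of it. The bHLH148-like gene had 8.90 against 3.19, where 8.90 rests on 2 counts over N_CS and is uncertain in size. For OsRLCK253a the effect was 6.70 against 1.69, and for OsERF27 5.09 against 1.35. In 2 genes it was smaller after cold shock, OsWRKY62 with 2.19 against 3.24 (difference -1.05, FDR 0.000944) and OsDREB1G with 1.96 against 2.86 (difference -0.91, FDR 0.00185, but 0.119 without N_RT replicate 1 and 0.0108 with DESeq2).

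In 7 genes the 2 effects passed in opposite directions. The room-temperature change passed in every alternative only for OsLEA2 and the receptor kinase LRR gene. OsHsfB2b rose at room temperature (1.78) and fell after cold shock (-4.87), a difference of -6.65 (FDR 2.82e-10). Its value after cold shock rests on 3 counts over T_CS and is uncertain in size. The other 6 fell at room temperature and rose after cold shock, with -0.30 and 3.58 for OsJAZ1, -0.20 and 3.09 for OsJAZ5, -0.47 and 2.05 for OsLEA2, -0.12 and 2.17 for Lip5, -0.52 and 2.03 for the TPS gene Os08g0414700 and -0.40 and 2.42 for the receptor kinase LRR gene. Of the 7 study genes that fell at room temperature, only OsDREB1A did not rise after cold shock. The study picked most of its genes for being higher in T_CS. For 5 genes, OsERF109b (-0.78, FDR 0.0454), OsERF109a (FDR 0.0293), OsERF67, the NAK kinase and the RLK At2g19210-like gene, the difference between treatments did not pass.

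**Figure D5:**
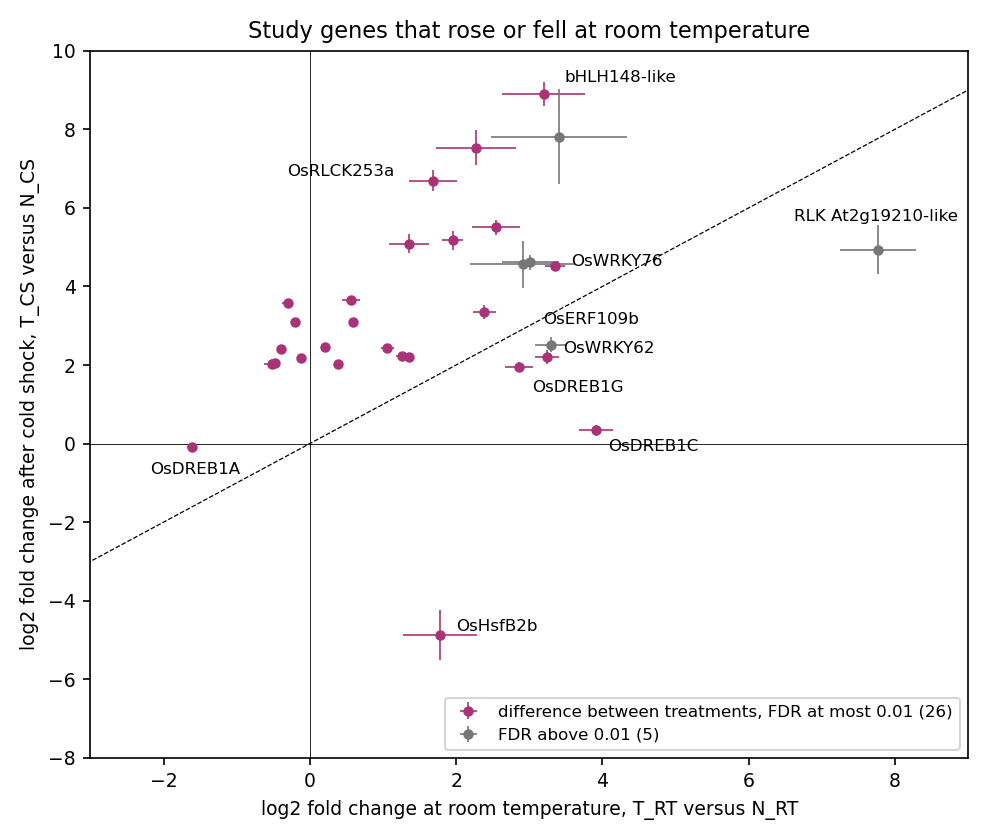
Log2FC of T versus N after cold shock (y axis) against that at room temperature (x axis) for the 31 study genes that rose or fell at room temperature, with bars of 1 SE from 2 libraries per group and a dashed line of equal effects. In 26 genes the 2 effects differed at an FDR of at most 0.01, as they did in 32.7% of all IDs tested. Most of the genes drawn were picked by the study for being higher in T_CS. The genes below the line are OsDREB1C, OsDREB1G, OsWRKY62, OsERF109b, OsHsfB2b and the RLK At2g19210-like gene.

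Of 30 tested genes with plastid or mitochondrial names, 2 (6.67%) rose, none fell and none was called, beside 9.44% and 7.49% of all IDs that rose and fell and 0.553% and 0.454% that were called. The ribosomal protein gene rps3 had 117 and 118 CPM in N_RT and 139 CPM in both T_RT libraries (log2FC 0.25, FDR 2.95e-07). The gene rpl16 had 5.42 and 5.30 CPM in N_RT and 8.25 and 7.09 CPM in T_RT (0.51, FDR 0.00794). Of 55 noncoding RNA IDs, 1 rose and 1 fell. The libraries were made from poly(A) RNA, which holds few organelle transcripts, so this says little of organelle RNA as a whole.

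The called genes were spread over all 12 chromosomes, as read from their IDs. The share called higher ranged from 0.344% of tested IDs on chromosome 10 to 0.954% on chromosome 12, where 15 of 1572 were called. The share called lower ranged from 0.256% on chromosome 11 to 0.789% on chromosome 9. Neighbouring IDs can share reads: 14 of the genes called higher and 13 of those called lower had counts within 1.3-fold of a neighbouring ID in every library with at least 10 counts, as did 12.7% of all IDs tested. With 1 ID kept of each such run, 149 genes were called higher and 122 lower.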

How the data were processed

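RNA-seq libraries were made by the study from poly(A) RNA with a strand-specific kit. After trimming with Trimmomatic and STAR alignment to the rice genome IRGSP-1.0, the authors counted reads per gene ID in featureCounts 1.6.4 and deposited these counts. Whole numbers with unequal totals were treated as raw counts. How strand and reads matching several IDs or places were handled is not given in the sources used here. No row lacked a gene ID.

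Groups follow the sample labels. In R 4.3.3, filterByExpr of edgeR 4.0.16 (minimum count 10, minimum total count 15, over 4 groups) kept 28218 of 38978 IDs. The 8 libraries were fitted together by quasi-likelihood with TMM scaling and a mean for each group. T_RT minus N_RT, T_CS minus N_CS and their difference were tested, and p-values were adjusted by Benjamini-Hochberg over all IDs. Fold changes and log2FC values are those fitted by edgeR, with no floor on the counts. With 1 to 3 counts in a group, the ratio of summed counts, scaled to library size, is given with an exact 95% interval. This interval covers counting error only.

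Named are all genes that the study gives with a complete ID (65, of which 59 were tested), together with the 2 IDs with the largest rise and the 2 with the largest fall among called genes of at least 1 CPM whose libraries did not overlap. Names came from the study's ID and name pairs and from organelle gene names in the files. Lists by gene description, marker lists and promoter motifs were not used here, as no table or genome of the same build was at hand. The comparison, the genes and the lists were chosen with earlier results of these data known. Alternatives were DESeq2 1.42.0, RLE size factors, total count scaling, other low-count filters, the 4 libraries alone, edgeR's likelihood ratio test, a block for replicate number, each library left out and other thresholds. Keeping 1 ID of near-equal neighbours was added after seeing the data.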

Additional observations from a re-analysis of the deposited data

Results flagged for a closer look

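The effect of the genotype at room temperature and that after cold shock were tested against each other by the difference of the 2 contrasts in edgeR, and the genes below are those named genes that rose or fell at room temperature and passed this test at an FDR of at most 0.01. Over all 28218 IDs tested the difference passed in 9220 (32.7%). Each value is the log2 fold change of T_CS versus N_CS minus that of T_RT versus N_RT, so that a positive value means a more positive effect after cold shock. Most of the study's genes were picked for being higher in T_CS, which favours positive values.

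Among the transcription factor genes the difference was 1.53 for OsDREB1A, -3.57 for OsDREB1C and -0.91 for OsDREB1G. It was 2.96 for OsWRKY108, 1.17 for OsWRKY76, -1.05 for OsWRKY62 and 3.74 for OsERF27. The bHLH148-like gene had 5.70 and OsHsfB2b -6.65. These values rest on 2 counts over N_CS for the bHLH148-like gene and 3 over T_CS for OsHsfB2b, so their size is uncertain. The difference of OsDREB1G was -0.60 (FDR 0.119) without N_RT replicate 1 and -0.88 (FDR 0.0108) with DESeq2.

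Among the jasmonate genes it was 3.87 for OsJAZ1, 3.29 for OsJAZ5, 2.25 for OsLOX1b and 1.37 for OsLOX2. The dehydration genes and their neighbours in the lists had 2.52 (OsLEA2), 2.29 (Lip5), 2.49 (OsERD7), 3.10 (dnaJ Os08g0452900) and 2.55 (TPS Os08g0414700). Among kinase and calcium genes it was 5.01 for OsRLCK253a, 2.82 for the receptor kinase LRR gene and 1.64 for OsCAM1. The other stress genes had 0.84 (ADH1), 0.97 (ADH2), 3.22 (OsUSP36), 0.96 (OsRBOH) and 5.26 (beta-1,3-glucanase). The beta-1,3-glucanase gene had 2 counts over N_CS, so the size of its difference is uncertain. The difference of ADH2 was 0.98 (FDR 0.0115) without N_RT replicate 1 and 0.82 (FDR 0.0175) without T_RT replicate 1.

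Of the unnamed IDs, Os01g0871600 had -6.23, Os07g0115200 -9.69 and Os12g0220001 5.71. These rest on groups with 1 count and depend on the prior count. For Os12g0220001 the FDR was 0.0108 without N_RT replicate 1 and 0.018 without T_RT replicate 1.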

How the results depend on the processing

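The calls at room temperature, 156 higher and 128 lower, were 118 and 95 with DESeq2, 149 and 166 with total count scaling, 181 and 161 with a likelihood ratio test and 182 and 175 at an FDR of at most 0.05. With DESeq2, 1734 genes rose and 1260 fell. With total count scaling 3576 fell and the median log2 fold change of all IDs was -0.07. At an FDR of at most 0.05, 3172 fell. With the fold threshold at 1, 515 were called higher, and with it at -2, 28 were called lower. Leaving out 1 library of T_RT or N_RT at a time, with the lone library of that group assumed to vary like the others, gave 141 to 144 called higher, 106 to 109 called lower, 1909 to 1966 that rose, 1327 to 1392 that fell and 8052 to 8204 with a difference between treatments.

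The 2 groups share replicate numbers, which only number technical libraries. The deviations of same-numbered libraries of N_RT and T_RT had a Pearson's r of -0.00303 across genes, which are not independent. With the replicate number as a block, 150 genes were called higher, 125 lower, 2588 rose and 2039 fell.

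Of 63 named genes or IDs tested, 35 passed the FDR, 24 of them in every alternative that gave a value, and 11 lost it in at least 1. None of the 35 changed sign. Of the 28 that did not pass, 2 passed in at least 1 alternative and 6 changed sign. Dip1 had -0.038 with total count scaling. Without single libraries, the log2 fold change ran from -0.72 to 0.43 for OsWRKY67 (0.29 without N_RT replicate 1), from -1.11 to 0.23 for OsJAZ11, from -0.84 to 0.70 for the calcium-dependent kinase, from -0.71 to 0.25 for OsGH3-6 and from -0.91 to 0.072 for OsWRKY8. The causes were not tested. Of 29 named genes or IDs with a difference between treatments, 26 kept it in every alternative that gave a value. The planned search for DRE motifs in promoters and its alternatives were not run. Each group is 1 pool, so the spread between plants is not covered by any of these values.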
